A study of Mus musculus with 13 samples.

Results

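The genes examined here were 10 genes of capillary endothelium and of fatty acid delivery to adipose tissue: Cd300lg, Gpihbp1, Cd36, Lpl, Aqp1, Aqp7, Car4, Rgcc, Meox2 and Tcf15. They were taken by name from the 54532 genes of the count table, and all 10 were among the 15811 genes that passed the filter on low counts. The list was drawn up with results of these data known, and Cd300lg was chosen by its counts, which were lower in the aortas of mice given the Fam3a virus. Differences between the virus groups are therefore given as a description, with counts of genes past a threshold from which nothing is read and no p given for any of the 10 genes, and the relation of each gene to the adipose content of the aorta was tested.

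RNA was sequenced from 13 whole aortas, 1 library per aorta. All mice were ApoE knockouts (ApoE-/-), were 10 weeks old when the subcutaneous pump was placed, and received angiotensin II (AngII) at 1000 ng/kg/min for 28 days, so that no aorta in the comparison was free of AngII. The 6 Ad-sham mice were injected through the tail vein with an empty adenovirus vector and the 7 Ad-FAM3A mice with the same vector carrying mouse Fam3a with a FLAG tag and mCherry under the EF1A promoter, 5 injections each. The study used males or females, and the sex of each sequenced mouse was not given in the sources used here.

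Total counts on genes ranged from 14481179 to 19797407 per aorta, and an expression of 0.140 to 0.221 CPM (counts scaled to library size and composition), worth 3 counts, was the most that an aorta with none of a gene's reads could hold by counting error alone. Fam3a, the delivered gene, was at 24.4 ± 4.27 CPM (SD, n = 6) in the aortas labelled Ad-sham and 24.0 ± 4.64 CPM (SD, n = 7) in those labelled Ad-FAM3A, a difference smaller than the spread within either group, so that the groups below rest on the labels alone. Whether reads of the viral transcript would be counted on this gene was not given in the sources used here. Transcripts of neighbouring tissues varied between aortas: the summed level of 10 kidney genes ran from 1.27 to 714 CPM in Ad-sham and from 1.38 to 439 CPM in Ad-FAM3A aortas, that of 12 adipocyte genes from 5464 to 15096 CPM and from 3424 to 8078 CPM, and that of 9 smooth muscle genes from 3110 to 13307 CPM and from 2355 to 19144 CPM. Ad-sham3, Ad-sham5, Ad-sham6 and Ad-FAM3A3 held kidney transcripts, Ad-sham1, Ad-sham3 and Ad-FAM3A6 held cardiac muscle transcripts, and Ad-FAM3A6 and Ad-FAM3A7 held B cell transcripts, as judged from the mean level of each marker list after its values were seen.

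Fatty acids reach adipocytes and muscle mainly as triglyceride in circulating lipoproteins. Lipoprotein lipase, made by the parenchymal cells, is carried across the capillary endothelium by GPIHBP1 and held on its luminal face, where it releases fatty acids that CD36 helps to bring into the cell. Capillaries of adipose tissue and heart hold this machinery together with the transcription factors MEOX2 and TCF15, whereas the endothelium that lines the lumen of the aorta is arterial and capillaries run in the outer wall and the fat around it. In bulk RNA, fewer cells of a type and less RNA per cell cannot be told apart.

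Promoter sequences were available in the RefSeq table (GRCm38.p6) for 6 of the 10 genes. The 250 bases before the start are shown for Rgcc and Aqp7, whose expression had a Pearson r of 0.87 and 0.71 with adipocyte transcripts over the 13 aortas, beside those of Car4 and Meox2, where r was 0.11 and 0.10. Capitals mark matches, on either strand, to GGGCGG (the GC box), CANNTG (the E-box, the motif bound by factors of the TCF15 type) and AGGTCA (the core element of nuclear receptors such as PPARG). The windows lie at chr14:79301636-79301885 on the minus strand for Rgcc, chr4:41048137-41048386 on the minus strand for Aqp7, chr11:84957504-84957753 on the plus strand for Car4 and chr12:37108290-37108539 on the plus strand for Meox2, and each is written 5′ to 3′ along its gene.
Rgcc: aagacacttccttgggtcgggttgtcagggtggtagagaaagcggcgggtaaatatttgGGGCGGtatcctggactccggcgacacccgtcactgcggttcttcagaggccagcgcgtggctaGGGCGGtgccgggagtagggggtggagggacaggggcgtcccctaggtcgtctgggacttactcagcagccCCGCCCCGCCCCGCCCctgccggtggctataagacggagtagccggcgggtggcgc
Aqp7: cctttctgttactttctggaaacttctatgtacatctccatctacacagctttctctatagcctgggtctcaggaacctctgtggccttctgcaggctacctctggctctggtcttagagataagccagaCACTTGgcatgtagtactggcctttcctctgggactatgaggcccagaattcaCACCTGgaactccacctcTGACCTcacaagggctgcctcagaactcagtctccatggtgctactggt
Car4: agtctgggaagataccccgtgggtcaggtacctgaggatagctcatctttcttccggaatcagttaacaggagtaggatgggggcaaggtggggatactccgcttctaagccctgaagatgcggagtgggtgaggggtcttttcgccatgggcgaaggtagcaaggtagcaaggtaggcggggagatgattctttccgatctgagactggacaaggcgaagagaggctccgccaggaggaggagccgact
Meox2: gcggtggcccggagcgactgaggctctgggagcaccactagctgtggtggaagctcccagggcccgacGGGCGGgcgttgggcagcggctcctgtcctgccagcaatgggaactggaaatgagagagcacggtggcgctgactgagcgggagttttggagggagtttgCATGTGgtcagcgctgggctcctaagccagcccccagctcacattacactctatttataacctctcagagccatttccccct
The Rgcc window was 66.8% G and C and held 5 matches to GGGCGG, of which the adjacent ones near the start shared single bases with each other. The Aqp7 window held 2 matches to CANNTG and 1 to AGGTCA. The Meox2 window held 1 match each to GGGCGG and CANNTG, and none of the 3 motifs was spelled in the Car4 window. Matches to different motifs did not overlap. Over the 6 windows, which also include those of Cd36 and Aqp1, GGGCGG was present in 4, CANNTG in 4 and AGGTCA in 2, against 33.0%, 66.2% and 14.0% of 32536 promoter windows of the same length. The Cd36 window, which held all 3 motifs, lies inside the gene, 52905 bases from the start that the count table gives. These matches are a description of the letters and not of binding.

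The levels of the genes were first compared per length of transcript (mean CPM per kilobase ± SD over 13 aortas), the only scale on which genes can be set side by side. Cd36 was the highest at 346 ± 111, followed by Aqp1 at 211 ± 46.8, Lpl at 176 ± 58.0 and Rgcc at 119 ± 45.9. A lower tier held Cd300lg at 26.7 ± 9.28, Aqp7 at 23.1 ± 8.82, Gpihbp1 at 19.2 ± 5.32, Car4 at 13.3 ± 5.38, Tcf15 at 11.4 ± 5.0 and Meox2 at 10.8 ± 4.17. The steps from Cd36 to Aqp1, from Rgcc to Cd300lg and from Gpihbp1 to Car4 were larger than the SD of either neighbour, and the other steps were not. Rgcc stood above Cd300lg in 13 of 13 aortas, whereas Aqp1 stood above Lpl in 9 and Tcf15 above Meox2 in 7. Between the lowest and the highest aorta the levels spanned from 2.08-fold for Aqp1 to 4.46-fold for Tcf15.

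**Figure D1:**
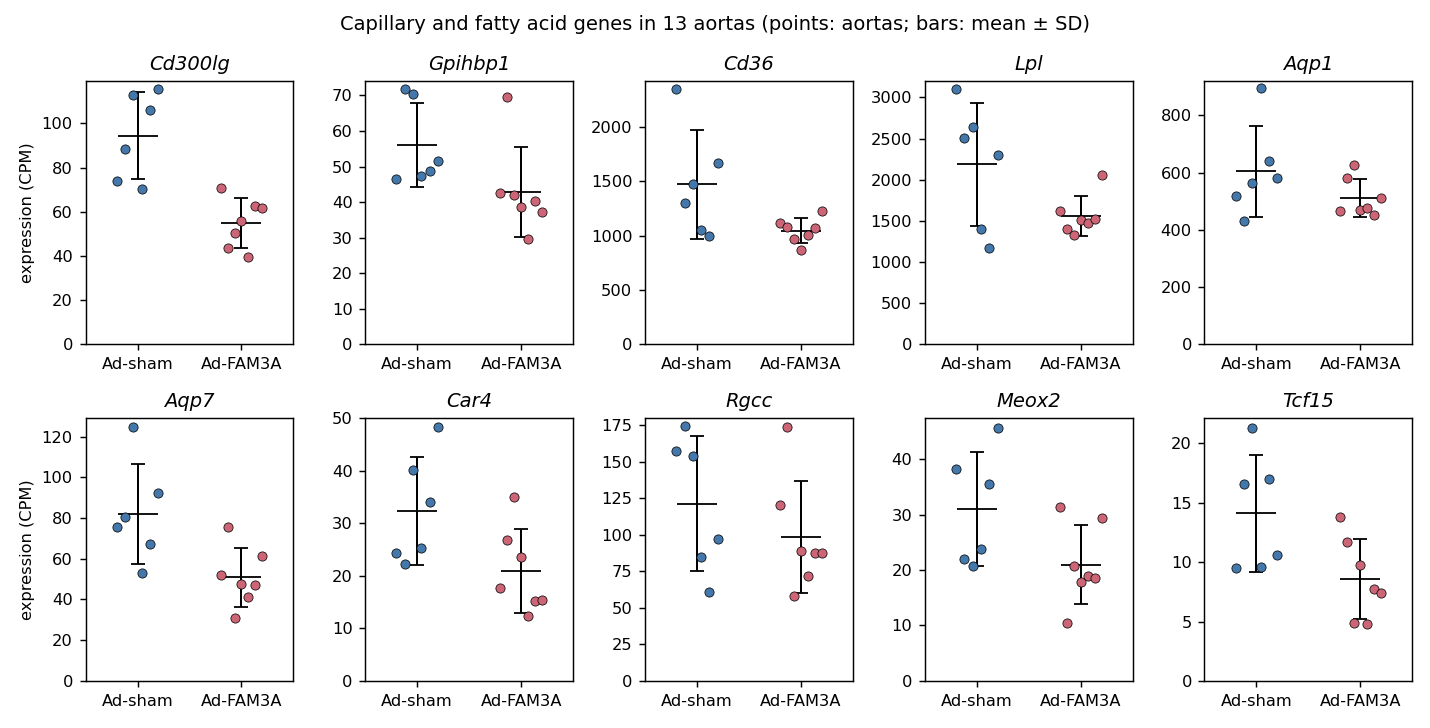
Expression of the 10 genes in CPM (vertical axes, from 0) in 6 Ad-sham (blue) and 7 Ad-FAM3A (red) aortas, each point being 1 aorta and the bars the mean ± SD. The means of the Ad-FAM3A aortas are lower in all 10 panels, and the points of the groups are most nearly apart for Cd300lg, where Ad-FAM3A1 at 70.8 CPM meets Ad-sham4 at 70.3 CPM.

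Cd300lg (ENSMUSG00000017309, chr11:102041509-102055620) encodes a glycoprotein of capillary endothelium of the CD300 family, also known as nepmucin. Its lowest, median and highest values were 70.3, 97.2 and 115 CPM in Ad-sham and 39.4, 56.0 and 70.8 CPM in Ad-FAM3A aortas. In 6 of the 7 Ad-FAM3A aortas it lay below every Ad-sham aorta, and only Ad-FAM3A1 reached into the Ad-sham range. The log2 fold change, given throughout as Ad-FAM3A minus Ad-sham, was -0.78 ± 0.17 (SE), and it was -0.74 ± 0.19 with the adipocyte score as a covariate and -0.77 ± 0.17 with the score of 17 general endothelial genes as a covariate. Without the 4 aortas that held kidney transcripts it was -0.48, and without the 3 that held cardiac transcripts it was -0.81. The other 6 CD300 genes, which are expressed mainly by myeloid cells, had a median log2 fold change of 0.57, with 5 above 0 and Cd300ld the exception at -0.46.

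Gpihbp1 (ENSMUSG00000022579, chr15:75596628-75599481), the endothelial carrier of lipoprotein lipase, ran from 46.5 to 71.9 CPM with a median of 50.2 in Ad-sham and from 29.5 to 69.7 CPM with a median of 40.2 in Ad-FAM3A aortas. Again 6 of 7 Ad-FAM3A aortas lay below every Ad-sham aorta, and Ad-FAM3A2 alone was near the top of the Ad-sham range. The log2 fold change was -0.39 ± 0.19, and -0.19 ± 0.18 with the adipocyte score as a covariate. Lpl (ENSMUSG00000015568, chr8:68880491-68907448), the lipase that GPIHBP1 carries, ran from 1173 to 3103 CPM with a median of 2402 in Ad-sham and from 1324 to 2061 CPM with a median of 1509 in Ad-FAM3A aortas. Its groups overlapped because Ad-sham4 and Ad-sham5 were low, while the other 4 Ad-sham aortas lay above every Ad-FAM3A aorta. The log2 fold change of Lpl was -0.49 ± 0.24, and -0.21 ± 0.24 with the adipocyte score.

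Cd36 (ENSMUSG00000002944, chr5:17781690-17888801), the fatty acid translocase, is present on capillary endothelium, adipocytes, cardiomyocytes and macrophages. It ran from 992 to 2348 CPM with a median of 1387 in Ad-sham and from 863 to 1223 CPM with a median of 1068 in Ad-FAM3A aortas. The upper end was set by Ad-sham1, an aorta with cardiac transcripts, and 4 of the 6 Ad-sham aortas lay above every Ad-FAM3A aorta. The log2 fold change was -0.49 ± 0.21, -0.34 ± 0.22 with the adipocyte score, -0.32 without Ad-sham1, and -0.25 without the 3 aortas that held cardiac transcripts.

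Of the water and glycerol channels, Aqp7 (ENSMUSG00000028427, chr4:41033074-41048139), through which glycerol crosses the membrane of adipocytes and capillary endothelium, ran from 53.1 to 125 CPM with a median of 78.0 in Ad-sham and from 30.7 to 75.7 CPM with a median of 47.7 in Ad-FAM3A aortas. Of the 7 Ad-FAM3A aortas 5 lay below every Ad-sham aorta. Its log2 fold change was -0.69 ± 0.22, -0.47 ± 0.21 with the adipocyte score, and -0.37 without the aortas that held kidney transcripts. Aqp1 (ENSMUSG00000004655, chr6:55336432-55348555), the water channel of endothelium, red cells and proximal tubule, ran from 431 to 897 CPM with a median of 572 in Ad-sham and from 450 to 625.2 CPM with a median of 475 in Ad-FAM3A aortas. The groups overlapped over the whole Ad-FAM3A range, and the log2 fold change of Aqp1 was -0.24 ± 0.18 and -0.39 ± 0.17 with the adipocyte score. It was -0.10 without Ad-sham4, the aorta with the highest Aqp1.

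Car4 (ENSMUSG00000000805, chr11:84957786-84966044), a membrane-anchored carbonic anhydrase of capillary endothelium and of kidney tubule, ran from 22.3 to 48.3 CPM with a median of 29.6 in Ad-sham and from 12.4 to 34.9 CPM with a median of 17.7 in Ad-FAM3A aortas. The log2 fold change was -0.63 ± 0.26, and -0.77 ± 0.29 with the adipocyte score. The 4 aortas that held kidney transcripts were the 4 with the most Car4, between 33.9 and 48.3 CPM, and the other 9 lay between 12.4 and 26.9 CPM. Without these 4 aortas, 3 of which were Ad-sham, the log2 fold change was -0.38. The part of kidney tissue in this difference was not tested.

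Rgcc (ENSMUSG00000022018, chr14:79288756-79301645), a regulator of the cell cycle that also marks capillary endothelium, ran from 61.0 to 174 CPM with a median of 126 in Ad-sham and from 58.2 to 174 CPM with a median of 87.8 in Ad-FAM3A aortas, ranges that were nearly the same. Its log2 fold change was -0.30 ± 0.28 and changed sign to 0.19 ± 0.18 with the adipocyte score as a covariate, the only sign change among the 10 genes with that covariate. It was -0.17 without Ad-sham2 and -0.49 without Ad-FAM3A2, the aortas with the most Rgcc in their groups.

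The 2 transcription factors of the list were the lowest per length. Meox2 (ENSMUSG00000036144, chr12:37108540-37179534), a homeobox factor that with TCF15 drives fatty acid uptake genes in capillaries, ran from 20.8 to 45.7 CPM with a median of 29.7 in Ad-sham and from 10.4 to 31.3 CPM with a median of 18.8 in Ad-FAM3A aortas. Its log2 fold change was -0.56 ± 0.26, and -0.61 ± 0.29 with the adipocyte score. Meox2 overlaps Gm48617 on the same strand, so that its counts are uncertain to the extent that reads were shared. Tcf15 (ENSMUSG00000068079, chr2:152143561-152149097), a basic helix-loop-helix factor and the partner of MEOX2, ran from 9.52 to 21.3 CPM with a median of 13.6 in Ad-sham and from 4.78 to 13.8 CPM with a median of 7.70 in Ad-FAM3A aortas. Its log2 fold change was -0.72 ± 0.29, -0.42 ± 0.25 with the adipocyte score, and -0.38 without the aortas that held kidney transcripts. For both factors the groups overlapped, with 5 Ad-FAM3A aortas below every Ad-sham aorta for Meox2 and 4 for Tcf15.

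All 10 log2 fold changes were below 0, beside 49.6% of the genes tested, and their median was -0.53 beside 0.00 over all genes. None of the 10 was called by edgeR's quasi-likelihood test, which asked for a log2 fold change of more than 1 in either direction and an adjusted p under 0.05, beside 0% of all genes, and none was called by DESeq2 or limma-voom. At an unadjusted p under 0.05, 6 of the 10 were past the threshold, all lower, beside 5.91% of all genes and 2.93% of all genes that were lower. The list was drawn up with this contrast in view, and nothing is read from these counts. Without the aortas that held kidney transcripts, or without those that held cardiac transcripts, 1 of the 10 was past that threshold. These sets held fewer aortas, their share over all genes is not given here, and nothing is read from this count either. The FPKM means that the authors deposited for each group were also lower in Ad-FAM3A for all 10, with 408 in Ad-sham against 291 in Ad-FAM3A for Cd36 and 14.2 against 8.72 for Tcf15.

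Endothelial genes outside the list were set beside these values. Of 17 general endothelial genes, 9 were lower and 8 higher in Ad-FAM3A aortas, with a median log2 fold change of -0.01. Pecam1, with the most counts among them, was at 0.21 ± 0.30, and Cldn5, a tight junction protein, was at -0.67 ± 0.22. Of 13 other capillary genes, 12 were lower, with a median of -0.28. These included Fabp4, a fatty acid binding protein of capillaries and adipocytes, at -0.75 ± 0.36, and Kdr, the main VEGF receptor, at -0.64 ± 0.20, while Fabp5 was the exception at 0.22 ± 0.39. The 8 arterial genes had a median of 0.02. No gene of these lists was called by edgeR's quasi-likelihood test, and at an unadjusted p under 0.05 there were 1 general (Cldn5), 2 other capillary (Kdr and Btnl9) and 0 arterial genes. Marker genes of several other cell types also lay all or mostly to 1 side, with none called by edgeR's quasi-likelihood test. Macrophage (7 lower and 3 higher), venous (4 and 2), lymphatic (3 and 3) and cardiac muscle genes (3 and 1) lay on both sides. Below 0 were 12 of 12 adipocyte genes (median -0.70), 7 of 7 brown adipocyte genes (-0.59), 6 of 6 sympathetic neuron genes (-0.68), 4 of 4 mesothelium genes (-1.66), 7 of 7 fibroblast genes (-0.25) and 5 of 6 kidney genes (-0.53). Above 0 were 5 of 5 B cell genes (2.29, all 5 at an unadjusted p under 0.05), 5 of 5 T cell genes (1.39), 9 of 9 smooth muscle genes (0.44), 7 of 8 skeletal muscle genes (0.51), 4 of 4 liver genes (1.83) and 7 of 7 red blood cell genes (0.70). At that unadjusted p there were also 6 adipocyte, 3 brown adipocyte, 1 T cell, 1 smooth muscle and 1 venous gene, beside 5.91% of all genes. The part of these in the members' differences was not tested.

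**Figure D2:**
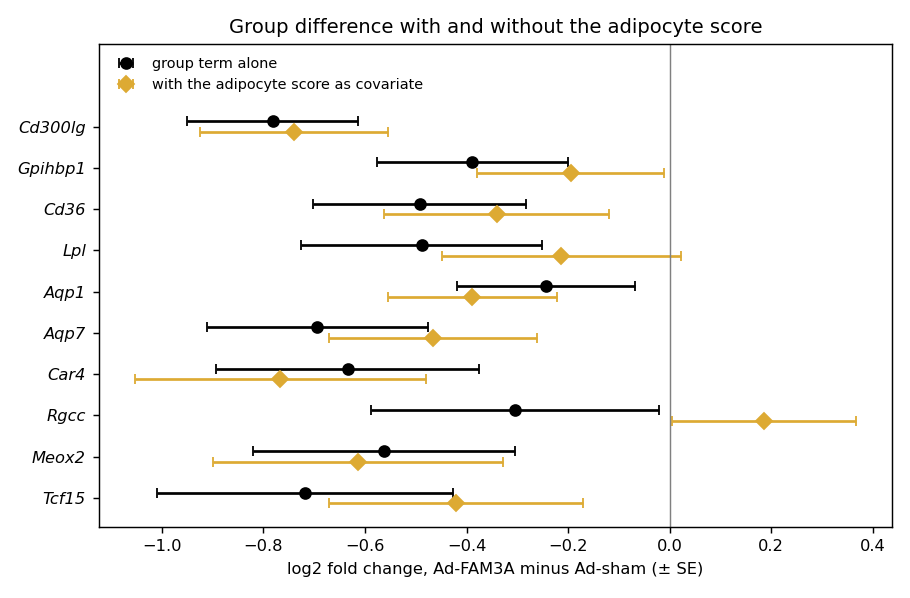
Log2 fold change, Ad-FAM3A minus Ad-sham, with its SE (horizontal axis) for the 10 genes, from the fit with the group alone (black circles) and with the adipocyte score as a covariate (yellow diamonds). Cd300lg stays near -0.78 and -0.74, whereas Rgcc moves from -0.30 to 0.19.

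To examine whether the genes followed adipose content, an adipocyte score was formed for each aorta as the mean log2 CPM of 12 adipocyte genes, none of them in the list. The score was 8.38 ± 0.70 (SD, n = 6) in Ad-sham and 7.81 ± 0.47 (SD, n = 7) in Ad-FAM3A aortas. Ad-sham1, Ad-sham2 and Ad-sham3 were the highest, at 8.94, 9.10 and 9.004, and Ad-FAM3A3 and Ad-FAM3A5 the lowest, at 7.18 and 7.30. The slope of each gene on this score was then fitted with the group as a covariate, so that the difference between groups did not enter it. A slope of 1 means that the gene changed in proportion to the adipocyte transcripts.

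Rgcc rose with the score at a slope of 0.82 ± 0.15 (SE), with a Benjamini-Hochberg adjusted p of 0.0122 over 15811 genes by edgeR's quasi-likelihood test. It was the only 1 of the 10 genes past the threshold, beside 4.21% of all genes (3.80% rising and 0.405% falling). Its slope was close to the median of 0.99 over the 12 adipocyte genes, which make up the score and so must follow it, and to that of 1.09 over 7 brown adipocyte genes. The call for Rgcc was lost without the aortas that held kidney transcripts, where the slope was 0.81 with an adjusted p of 0.601 by the same test, and without those that held cardiac transcripts, where it was 0.86 with an adjusted p of 0.0669 by it.

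The other slopes were not past the threshold. Tcf15 was at 0.64 ± 0.22, Aqp7 at 0.42 ± 0.18, Lpl at 0.41 ± 0.19, Gpihbp1 at 0.34 ± 0.15 and Cd36 at 0.24 ± 0.18, with adjusted p between 0.135 and 0.514 by the quasi-likelihood test. Cd300lg was at 0.08 ± 0.16 with an adjusted p of 0.804 by that test, and the difference between its slope and that of Rgcc was not tested. Meox2 was at -0.11 ± 0.24, Car4 at -0.25 ± 0.23 and Aqp1 at -0.29 ± 0.14, with adjusted p between 0.296 and 0.826. With 1 aorta left out the slope ran from 0.014 (without Ad-sham4) to 0.20 (without Ad-sham1) for Cd300lg, from -0.38 (without Ad-sham3) to -0.038 (without Ad-FAM3A3) for Car4 and from -0.35 (without Ad-sham6) to -0.18 (without Ad-sham4) for Aqp1. For Cd36 it ran from 0.16 (without Ad-sham1) to 0.38 (without Ad-sham6). The slope of Tcf15 was 0.25 with the brown adipocyte score and 0.99 with the replicate number as a block. The slopes of 7 of the 10 were above 0, beside 42.9% of all genes, with a median of 0.29 beside -0.06, and 4 were past an unadjusted p of 0.05 (Rgcc, Tcf15, Aqp7 and Gpihbp1), beside 18.0%. With simulated counts of these aortas a slope of 1 was recovered for 31% of changed genes, and slopes below 1 were not simulated.

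**Figure D3:**
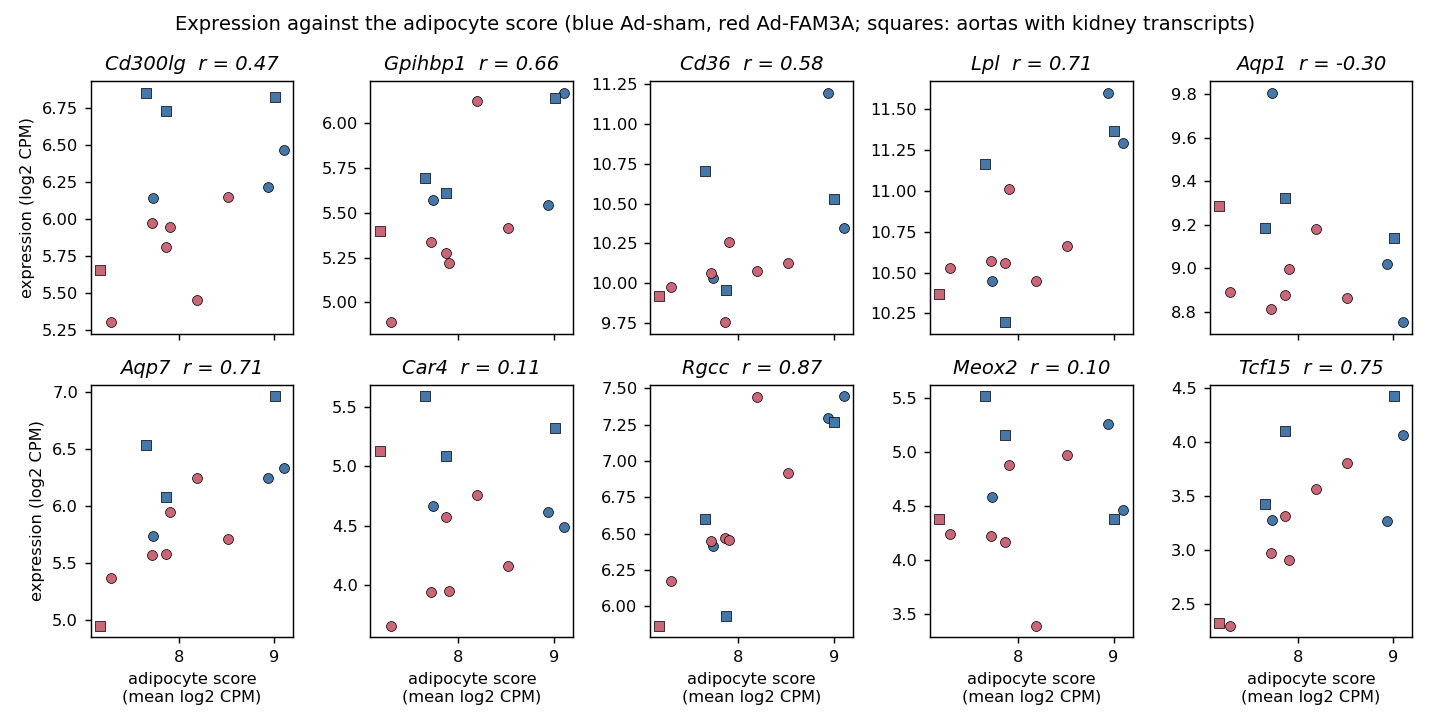
Expression in log2 CPM (vertical axes) against the adipocyte score in mean log2 CPM (horizontal axes) for the 10 genes, with Ad-sham aortas in blue, Ad-FAM3A in red and aortas with kidney transcripts as squares. Rgcc, at r = 0.87, forms a band from lower left to upper right, while in the Cd300lg panel, at r = 0.47, the blue points lie above the red at the same score.

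Without a count model, 10 correlations of log2 CPM with the score were computed over the 13 aortas, each p from 100000 permutations and adjusted over all genes tested. These pooled values include the difference of both measures between groups, so that the values within 6 Ad-sham and 7 Ad-FAM3A aortas are given beside them. Rgcc had a Pearson r of 0.87 (permutation p = 0.00021, adjusted 0.0122) and a Spearman rho of 0.80 (permutation p = 0.00168, adjusted 0.0488), with r of 0.89 within Ad-sham and 0.85 within Ad-FAM3A. Without Ad-sham2 and Ad-sham3, the aortas farthest from the median score, its r was 0.80 and its adjusted permutation p was 0.210, and without Ad-sham2 alone these were 0.83 and 0.0559. Rgcc was the only member called by either coefficient, beside 6.16% of all genes by Pearson and 3.62% by Spearman, and 6 members had an unadjusted Pearson p under 0.05 by permutation, beside 21.2% of all genes.

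Tcf15 had r of 0.75 (permutation p = 0.00318, adjusted 0.0508) and rho of 0.67, with r of 0.43 within Ad-sham and 0.97 within Ad-FAM3A, and whether these differed was not tested. Lpl had r of 0.71 (permutation p = 0.00694, adjusted 0.0796) and rho of 0.58, and Aqp7 had r of 0.71 (permutation p = 0.00636, adjusted 0.0754) and rho of 0.67. Within Ad-sham and within Ad-FAM3A aortas r was 0.73 and 0.36 for Lpl and 0.49 and 0.76 for Aqp7. For Gpihbp1 r was 0.66 (permutation p = 0.0132, adjusted 0.113) and rho 0.56, with r of 0.65 within Ad-sham, 0.51 within Ad-FAM3A and 0.37 without Ad-sham2 and Ad-sham3. For Cd36 r was 0.58 (permutation p = 0.0347, adjusted 0.192) and rho 0.58, with r of 0.45 within Ad-sham and 0.41 within Ad-FAM3A. Without the same 2 aortas r was 0.59 for Tcf15, 0.56 for Lpl, 0.56 for Aqp7 and 0.59 for Cd36.

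Cd300lg, Car4, Meox2 and Aqp1 had adjusted permutation p between 0.354 and 0.907. Cd300lg had r of 0.47 (permutation p = 0.108, adjusted 0.354) and rho of 0.43, but -0.11 within Ad-sham and 0.54 within Ad-FAM3A aortas. Car4 was at 0.11 with rho of 0.00, Meox2 at 0.10 with rho of 0.18, and Aqp1 at -0.30 with rho of -0.33. Within Ad-sham the r of Car4, Meox2 and Aqp1 was -0.42, -0.49 and -0.74, and within Ad-FAM3A it was -0.070, 0.11 and -0.28. The difference between groups was not tested. Within Ad-sham the general endothelial score moved opposite to the adipocyte score, from 6.07 to 6.24 in Ad-sham1, Ad-sham2 and Ad-sham3 and from 6.52 to 6.98 in Ad-sham4, Ad-sham5 and Ad-sham6, and its part in these values was not tested.

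**Figure D4:**
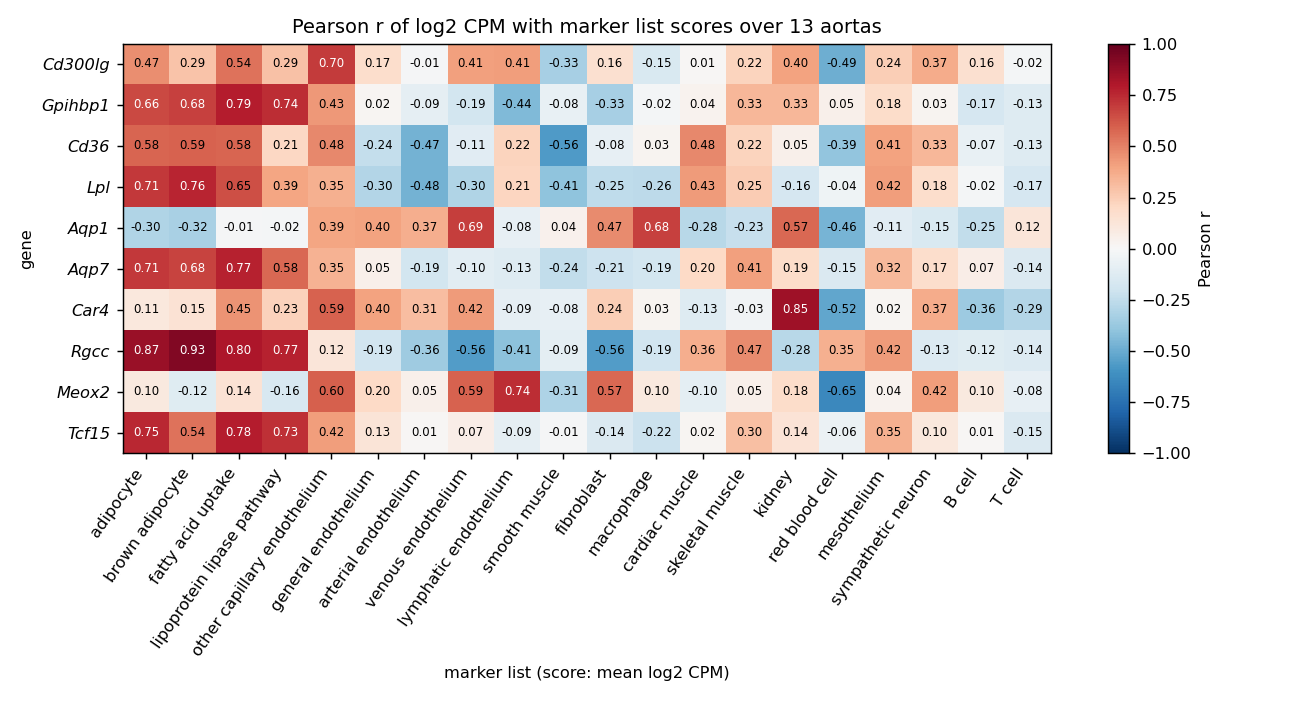
Pearson r over 13 aortas between the log2 CPM of the 10 genes (rows) and the scores of marker lists (columns), in colour from -1 (blue) to 1 (red) with the value in each cell. The difference between virus groups enters these values, which in the adipocyte column are above 0.45 for Cd300lg, Gpihbp1, Cd36, Lpl, Aqp7, Rgcc and Tcf15, and in the kidney column reach 0.85 for Car4.

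The lists that the genes followed most closely differed between them. These r values over the same 13 aortas, which share depth, tissue mixture and the difference between virus groups, are a description, and the values within Ad-sham and within Ad-FAM3A aortas are given beside them. Cd300lg, chosen by its group difference, was at 0.70 with the 13 other capillary genes, but at -0.24 and 0.67 within the groups. Gpihbp1, Aqp7 and Tcf15 were closest to the 16 tested genes of fatty acid uptake at 0.79 (0.73 and 0.66), 0.77 (0.69 and 0.56) and 0.78 (0.48 and 0.80). The adipocyte core list, 3 genes of the adipocyte list, was left out of this choice. Tcf15 was at 0.793 with it, above its 0.783 with fatty acid uptake. Rgcc was closest to the brown adipocyte genes at 0.93 (0.99 and 0.92), as were Lpl at 0.76 (0.89 and -0.19) and Cd36 at 0.59 (0.56 and 0.024). Car4 was closest to the kidney genes at 0.85 (0.94 and 0.80), Meox2 to 6 lymphatic genes at 0.74 (0.78 and 0.89) and Aqp1 to the 3 other aquaporins tested, of which Aqp2 is also a kidney gene, at 0.76 (0.79 and 0.85), beside 0.57 (0.33 and 0.88) with the kidney genes. These 3 aquaporins were low, with means of 1.72 CPM for Aqp2, 0.70 CPM for Aqp9 and 4.77 CPM for Aqp11. For Rgcc, Car4, Meox2 and Aqp1 the value with the closest list was thus at least 0.78 within each group, while for Cd300lg, Lpl and Cd36 it was near or below 0 in 1 of them. For Meox2, Ad-FAM3A2 stood apart within its group. Its lymphatic score was 1.84, beside 3.62 to 5.12 in the other Ad-FAM3A aortas, and its Meox2 3.39 log2 CPM, beside 4.17 to 4.97. The r without this aorta was not computed. Of the 45 pairs of members, 40 had r above 0 over all aortas with a median of 0.44. With each group centred on its own mean, 27 were above 0 with a median of 0.13, beside 49.3% and -0.01 over all pairs of genes tested. Within Ad-sham 25 were above 0 with a median of 0.039, and within Ad-FAM3A 27 with a median of 0.097.

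**Figure D5:**
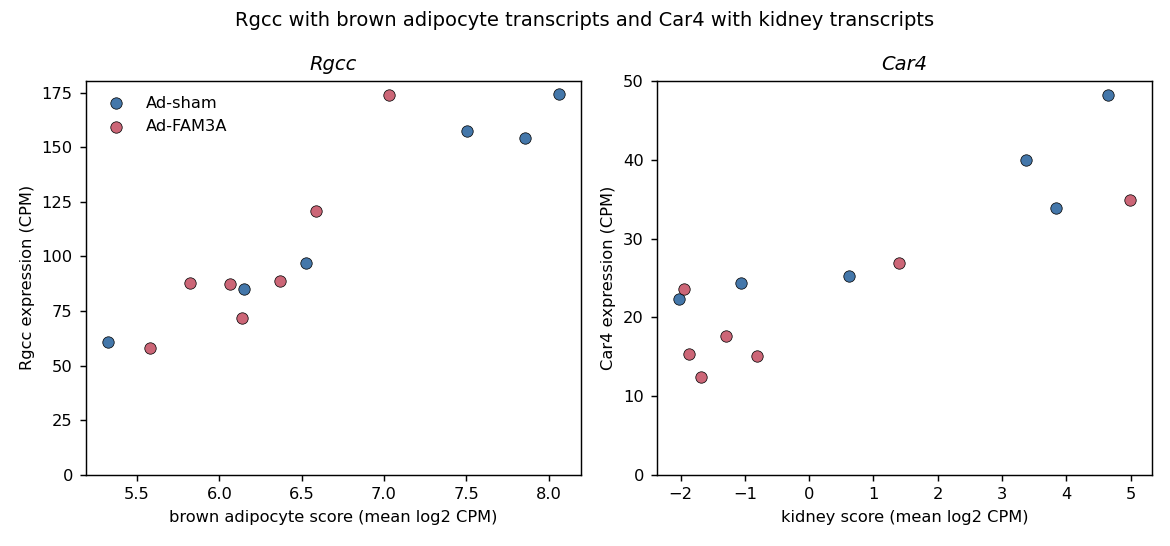
Rgcc in CPM against the brown adipocyte score (left) and Car4 in CPM against the kidney score (right), both scores in mean log2 CPM, for 6 Ad-sham (blue) and 7 Ad-FAM3A (red) aortas. Rgcc increases along its axis, with r = 0.93 for its log2 CPM, and the 4 aortas with a kidney score above 3 hold between 33.9 and 48.3 CPM of Car4.

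The genes with the most similar patterns were taken as the 3 with the highest r for each member over the 13 aortas, to which the group difference again contributes. For Cd300lg these were Kdr at 0.90 (0.80 within Ad-sham and 0.84 within Ad-FAM3A), Efnb1, an ephrin ligand, at 0.88 (0.79 and 0.65) and Slc27a1, a fatty acid transport protein, at 0.87 (0.91 and 0.51). For Rgcc they were Mrps36, Ech1 and Clybl at 0.97 each, of which Ech1 is an enzyme of fatty acid oxidation. For Tcf15 they were Mocs1 at 0.95, the peroxisomal Pex14 at 0.93 and the hormone-sensitive lipase Lipe, a gene of the adipocyte score, at 0.92. For Aqp7 they were Neil2 at 0.92, 1810062G17Rik at 0.90 and Dgat1, which makes triglyceride, at 0.90, and for Lpl Ganc at 0.94, Mto1 at 0.93 and Tmem135 at 0.93. For Gpihbp1 they were Asna1 at 0.94, Mrps11 at 0.94 and Khk at 0.93, and for Cd36 the peroxisomal Pex3 at 0.94, Sfxn1 at 0.93 and Grsf1 at 0.92. For Meox2 they were Chp2 at 0.95, Zeb2 at 0.91 and C1s1 at 0.90, and for Aqp1 Capn6 at 0.86, Rab7b at 0.79 and Gal3st1 at 0.79. For Car4 they were Akr1c21 at 0.90, Kap, a transcript of kidney tubule, at 0.90 and Acot1 at 0.89. Of the 10 kidney genes, Kap had the highest mean at 68.8 CPM, and Umod, Slc12a1, Slc34a1, Kap, Slc22a6, Slc12a3 and Miox had a count of 0 in at least 1 aorta.

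The rest of the lipase pathway and of fatty acid uptake was examined in the same fit. Of 16 further genes that act on lipoprotein lipase or on its lipoproteins, 13 were tested, and 11 of these had a slope above 0 on the adipocyte score, beside 42.9% of all genes, with a median of 0.37 beside -0.06. Angptl8, an inhibitor of the lipase, was the only one called, beside 4.21% of all genes, with a slope of 1.43 ± 0.28 and an adjusted p of 0.0152 by edgeR's quasi-likelihood test. Angptl4, the inhibitor induced by fasting, was at 0.49 ± 0.21, and Lmf1, which folds the lipase, at 0.46 ± 0.14. Sel1l, a partner of Lmf1, went the other way at -0.34 ± 0.10. Lrp1, with the most counts in the list, was at -0.50 ± 0.23.

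Of 17 genes of fatty acid uptake 16 were tested, and 13 had a slope above 0, with a median of 0.17. Fabp4 at 1.06 ± 0.19 and Vegfb at 0.78 ± 0.15 rose with the score, with adjusted p of 0.0108 and 0.0125 by edgeR's quasi-likelihood test. Without the aortas that held kidney transcripts that test called 0 genes of the table (1183 at an unadjusted p under 0.05), so that the calls of Fabp4, Vegfb, Angptl8 and Car3 were lost there with that of Rgcc. VEGFB is a growth factor that acts through Flt1 and Nrp1 on endothelial fatty acid uptake, and these receptors were at -0.31 ± 0.15 and 0.05 ± 0.12. Acsl1 and Acsl5, which activate fatty acids, were at 0.45 ± 0.17 and 0.81 ± 0.24 without passing the threshold. Of 17 general endothelial genes 3 had a slope above 0, with a median of -0.19, and of 8 arterial genes 1, with a median of -0.36, beside 42.9% and -0.06 over all genes. Differences between these lists were not tested. Of the 13 other capillary genes 5 were above 0, with a median of -0.04, and Fabp4 was the only one called.

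Within the families of the members, 3 of the 8 other aquaporins were tested, all with slopes below 0. Per length the highest of them was Aqp2, a channel of the kidney collecting duct, at 1.21 CPM per kilobase, beside 211 for Aqp1 and 23.1 for Aqp7. Of 15 other carbonic anhydrases 11 were tested, and Car3, the abundant cytosolic form of adipocytes at 3053 CPM, rose with the score at 0.94 ± 0.18, with an adjusted p of 0.0144 by edgeR's quasi-likelihood test. Car4 was at -0.25 ± 0.23 in the same fit. Of the other 6 CD300 genes, 5 had slopes below 0, with a median of -0.57, and none was called.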

How the data were processed

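RNA of 13 aortas was analysed, grouped by the labels into 6 Ad-sham and 7 Ad-FAM3A aortas. Per the study's methods the authors mapped 150 bp reads to GRCm38 using Hisat2 and assigned them to genes using FeatureCounts. The values deposited by the authors are raw counts per gene and aorta. The annotation release and the strand setting were not given in the sources used here, which leaves counts of overlapping genes uncertain. Group means of FPKM, 1 per group, come from the authors and carry no error. All columns were matched to samples, with 0 left over. The deposited columns of the group comparison (fold changes and p-values) were not used.

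Counts were normalized by TMM and filtered by filterByExpr (minimum count 10) in edgeR 4.0.16 under R 4.3.3. Groups and slopes were tested by the quasi-likelihood test of edgeR, adjusted after Benjamini and Hochberg over 15811 genes. The SE of a coefficient was its absolute value over the root of F. Log2 CPM had a prior count of 2, and a list's score is its mean log2 CPM over the genes tested. Correlations were tested by 100000 two-sided permutations, for which the smallest p is 1e-05. DESeq2 1.42.0 and limma 3.58.1 served as alternatives.

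The members and all 25 gene lists beside them were chosen with earlier results of these data known. Named genes were the members, of each list the genes with the highest mean, those called and those against its direction, and 3 neighbours of each member. Further genes were named after their values were seen. Aortas with kidney, cardiac or B cell transcripts were those with a list score above 3, 3 or 5, limits set after seeing the data.

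The tests were tried on simulated counts with 200 changed genes, drawn from those with a mean above 1 CPM. Counts of each gene were drawn independently, without shared variation in tissue mixture. Genes were called at an adjusted p under 0.05 alone, without the limit on the log2 fold change that the comparison of groups used. The comparison of groups recovered 84% at a log2 change of 2, with 4% of its calls unchanged genes. The slope test recovered 31% at a slope of 1 and 87% at a slope of 2, with 8.82% and 5.95% of its calls unchanged genes. The replicate numbers of the labels shared only a number: r between the deviations of same-numbered aortas ran from -0.33 to 0.45. No 2 aortas had identical counts. That the aortas came from separate mice is inferred from the labels and the study's methods.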

Additional observations from a re-analysis of the deposited data

Results flagged for a closer look

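Gpihbp1 in Ad-FAM3A2 was at 6.12 log2 CPM, whereas the other 6 Ad-FAM3A aortas lay between 4.89 and 5.42, a gap of 0.57 of the group's whole range and larger than Dixon's 95% limit for 7 values. It was 1 of 22 groups of values examined (10 genes and the adipocyte score in each virus group), where 1.1 are expected by chance. Ad-FAM3A2 had a lymphatic endothelium score of 1.84, the lowest of the 13 aortas, and a brown adipocyte score of 7.03, the highest among Ad-FAM3A aortas. Without it the log2 fold change of Gpihbp1 was -0.53, beside -0.39 with it.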

How the results depend on the processing

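The log2 fold change between groups kept its sign in all but 1 of 260 member values over 26 alternatives, the exception being Rgcc with the adipocyte score (0.19). edgeR and limma-voom called 0 genes between groups (934 and 702 at an unadjusted p under 0.05) and DESeq2 called 10 (9 higher, 1 lower), no member among them. Against 665 genes and 1 member, the slope called 1089 genes and 2 members with no group term, 335 genes with the endothelial score, 1171 with DESeq2 (979 rising, 192 falling), 53 genes and 0 members without the cardiac-transcript aortas, and 0 genes and 0 members without the kidney-transcript aortas. Leaving out 1 aorta gave 213 (without Ad-sham2) to 937 genes (without Ad-sham1) and 1 to 2 members, Tcf15 being added without Ad-sham1. The correlation, with 974 genes and 1 member, gave 0 genes and 0 members without the 2 farthest aortas, without the cardiac-transcript and without the kidney-transcript aortas. It gave 2 members with the adipocyte core score (1065 genes), the brown adipocyte score or library totals. Apart from leaving out 1 aorta, no alternative gave more than 1065 genes. With 1 aorta left out it gave 260 (without Ad-sham2) to 1268 genes and 0 to 2 members. The causes of these shifts were not tested.

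Slopes of opposite sign, none past the threshold, were those of Meox2 (-0.29 to 0.044 with 1 aorta left out, positive without Ad-sham6, 0.080 with no group term, 0.28 without the kidney-transcript aortas), Car4 (0.025 with no group term, 0.19 without the kidney-transcript aortas) and Cd300lg (-0.030 with the brown adipocyte score). For r they were Car4 (-0.059 without the 2 farthest aortas, -0.42 within Ad-sham, -0.070 within Ad-FAM3A, -0.18 without the cardiac-transcript aortas, -0.10 to 0.25 with 1 aorta left out, negative without Ad-FAM3A5 or Ad-sham3), Meox2 (-0.49 within Ad-sham, -0.12 with the brown adipocyte score, -0.051 without the cardiac-transcript aortas, -0.021 to 0.23 with 1 aorta left out, negative without Ad-sham1) and Cd300lg (-0.11 within Ad-sham). With the replicate number as a block the slope called 0 genes and 0 members, with 0.62 for Rgcc and 0.35 for Cd300lg, and the comparison of groups 0 genes. In 3 of 6 same-numbered pairs r was over 0.1, and 1 of 6 Ad-sham aortas correlated best with its own number. In simulated counts of the 13 aortas a slope of 1 was recovered for 31% of changed genes and a slope of 2 for 87%.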

Other observations

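Over the 13 aortas Aqp1, the water channel, had r of 0.69 with the venous score (0.88 within Ad-sham and 0.10 within Ad-FAM3A) and 0.68 with the score of 10 macrophage genes (0.79 and 0.70). Meox2 had r of 0.60 with the other capillary (0.60 and 0.46), 0.59 with the venous (0.34 and 0.81), 0.57 with the fibroblast (0.60 and 0.47) and -0.65 with the red blood cell score (-0.70 and -0.34). In the slope fit 1 of 6 venous genes had a slope above 0, with a median of -0.43, and 0 of 7 fibroblast genes, with a median of -0.59, beside 42.9% and -0.06 over all genes. Selp, the venous adhesion receptor P-selectin, and Lum, a collagen-binding proteoglycan of fibroblasts, fell with the score. These 2 genes were called at a Benjamini-Hochberg adjusted p under 0.05 by edgeR's quasi-likelihood test, beside 0.405% of all genes falling, and both calls were lost without the kidney-transcript aortas, where 0 genes were called (1183 at an unadjusted p under 0.05).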
